A study of Mus musculus with 4 samples.

Results

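The 40 genes described here encode the machinery that builds melanosomes, the pigment organelles of melanocytes, and moves them through the cell. They were chosen by name for that role: Rab GTPases, motors and their adaptors, the adaptor complexes AP-1 and AP-3, the BLOC complexes, the HOPS tether and endosomal SNAREs. All 40 were among the 27933 genes in the files, and all 40 were among the 13348 genes that passed the filter on low counts. No member had fewer than 81 counts in any library, and 38 of the 40 had at least 100 in every library. The RNA came from melanocyte stem cells of mice, which renew the pigment cells of the hair, and the cells had been sorted from skin by flow cytometry. The stressed group (2 libraries) came from mice whose treatment is given as RTX, an abbreviation that the labels do not spell out, and the control group (2 libraries) from mice given saline. A protocol text shared by all 4 samples mentions RTX alone, injected 12 h before harvest. The sources used here do not give the strain, age, sex, sort markers or number of animals behind a library. Whether the libraries of a group came from separate animals is likewise not said, so a p-value here reflects only how these libraries differ, which may be technical.

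Melanosomes are relatives of lysosomes. Melanin-making enzymes leave endosomes in carriers sorted by AP-1 and AP-3, BLOC-1 and BLOC-2 help form and direct the carriers, and BLOC-3 activates Rab32 and Rab38, which mark the delivery route. Once filled, a melanosome gains Rab27a, which binds melanophilin (the Mlph product) and through it myosin Va (the Myo5a product), the actin motor that holds pigment at the cell edge. Loss of many of these genes lightens the mouse coat, and in humans loss of several causes Hermansky-Pudlak, Griscelli or Chediak-Higashi syndrome.

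Gene counts summed to between 9273652 and 11854280 in a library. The 9 pigment cell markers (Dct, Tyrp1, Tyr, Pmel, Mlana, Mitf, Sox10, Kit and Ednrb) were detected in every library, and together they took 4.01% and 3.71% of all counts in stressed replicates 1 and 2, against 2.31% and 2.18% in control replicates 1 and 2. The 14 keratinocyte markers took 1.10% and 0.920% in the stressed libraries, against 2.87% and 1.71% in the controls, with none at 0. Mast cell and endothelial markers were near the floor, with at most 14 counts summed over each list in a library, and leukocyte markers summed to between 86 and 509 counts. Fibroblast markers summed to between 57 and 250 counts. The control libraries differed more from each other than the stressed pair, with a median gap over the members of 0.191 log2 units between the stressed libraries and 0.306 between the controls.

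Most of the melanosome sorting and transport genes had small fold changes between stressed and control cells. Of the 40 members, 36 had an absolute log2 fold change below 0.5, none reached 1, and in 20 the change was smaller than its standard error (SE). The other 4 were higher by more than 0.5 (10%, beside 12% of all genes higher by more than 0.5). Whether the members changed less than other genes in absolute terms was not tested. Over all 4 libraries Myo5a, the melanosome motor, was the 1 member called, as higher by DESeq2 and not by edgeR. Over the members the log2 fold change, stressed over control, had a median of 0.15, with 26 higher and 14 lower, beside -0.01 over all genes tested, of which 49.1% were higher. By edgeR's quasi-likelihood test, with Benjamini-Hochberg adjustment over all genes, 0 of 40 members were called, against 0% of all genes. By edgeR, 3 members (Myo5a, Hps3 and Hps4) were higher at an unadjusted p below 0.05 and none was lower, which is 7.5% of the members beside 5.17% of all genes higher and 7.6% lower. DESeq2 called 1 of 40, or 2.5%, beside 4.4% of all genes in either direction, 1.73% higher and 2.67% lower. With limma-voom 0 members were called and 4, or 10%, had an unadjusted p below 0.05, beside 12.7% of all genes. Both stressed libraries lay above both controls in 13 members, or 32.5%, beside 21.8% of all genes, and below both controls in 2, or 5%, beside 22.9%. Summed over the 40 genes, the share of all counts was 0.640% and 0.600% in stressed replicates 1 and 2, against 0.473% and 0.525% in control replicates 1 and 2. The groups did not overlap in this share, and the exact permutation test gave a two-sided p of 0.333, the smallest that 2 libraries against 2 allow. In bulk samples, fewer cells of a type and less RNA per cell cannot be told apart.

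**Figure D1:**
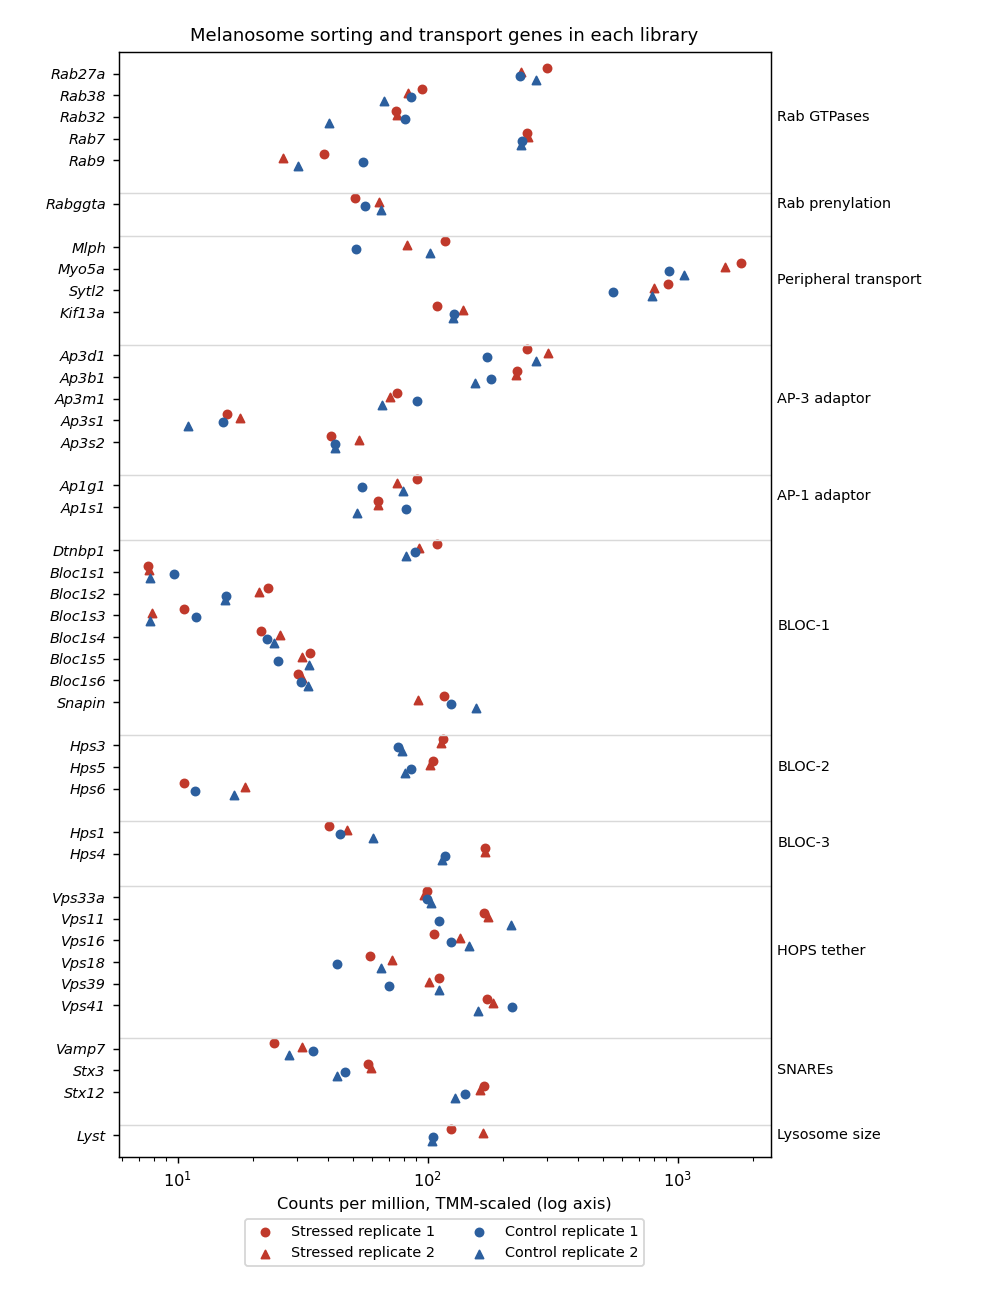
Level of each of the 40 members in each library, in TMM-scaled counts-per-million units (CPM) on a log axis, with genes ordered by role (red stressed, blue control, circles replicate 1, triangles replicate 2). For Myo5a, at the right, both red points lie above both blue points. In 25 of the 40 genes, or 62.5%, the groups overlap, beside 55.3% of all genes tested.

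The largest fold change of the 40 was that of Myo5a (chromosome 9, 75071015-75223688, plus strand, mm10). Its level was 1791 and 1552 CPM (counts-per-million units, scaled by TMM) in stressed replicates 1 and 2, against 926 and 1056 CPM in control replicates 1 and 2. Both stressed libraries lay above both controls, and the means were 1671 ± 169 CPM in stressed cells and 991 ± 91.3 CPM in control cells (SD, n = 2 each). The log2 fold change was 0.75 with an SE of 0.22 by edgeR (adjusted p = 0.254) and 0.76 by DESeq2 (adjusted p = 0.00611). The fold change stayed between 0.65 and 0.87 with any 1 library left out. The DESeq2 call, however, was lost without stressed replicate 1 and without stressed replicate 2. Myo5a alone held 28.1% and 25.6% of the members' counts in the stressed libraries, against 19.7% and 20% in the controls. Without it the remaining 39 members took 0.460% and 0.446% of all counts in the stressed libraries, against 0.380% and 0.420% in the controls.

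Mlph and Rab27a, the motor's partners, were called by neither edgeR nor DESeq2 over all 4 libraries, and nor were Sytl2 and Kif13a. Mlph, the linker between Rab27a and the motor (chromosome 1, 90915085-90951142, plus strand), stood at 117 and 82.8 CPM in the stressed libraries, against 51.5 and 102 CPM in the controls. Control replicate 1 was the low library, and control replicate 2 lay between the stressed pair. The log2 fold change of 0.38 (SE 0.35, edgeR adjusted p = 0.722) was 0.96 without control replicate 2, a call by edgeR (adjusted p = 0.0434), and -0.03 without control replicate 1. Rab27a (chromosome 9, 73044854-73097629, plus strand), which marks the mature melanosome, was at 301 and 237 CPM in the stressed libraries, against 233 and 271 CPM in the controls. Its groups overlapped, and the log2 fold change was 0.09 with an SE of 0.21. Its sign turned without stressed replicate 1 (-0.09). Sytl2, another Rab27a effector that links vesicles to the plasma membrane (chromosome 7, 90302252-90410719, plus strand), was at 915 and 803 CPM in the stressed libraries, against 552 and 791 CPM in the controls. Both stressed libraries were above both controls, though stressed replicate 2 and control replicate 2 nearly met, and the log2 fold change was 0.35 (SE 0.25, edgeR adjusted p = 0.620). The edgeR value of Sytl2 was 0.64 without control replicate 2, against 0.12 without control replicate 1. Kif13a, a kinesin that works with AP-1 to bring recycling endosomes to melanosomes, was level, at 109 and 138 CPM in the stressed libraries, against 128 and 126 CPM in the controls.

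**Figure D2:**
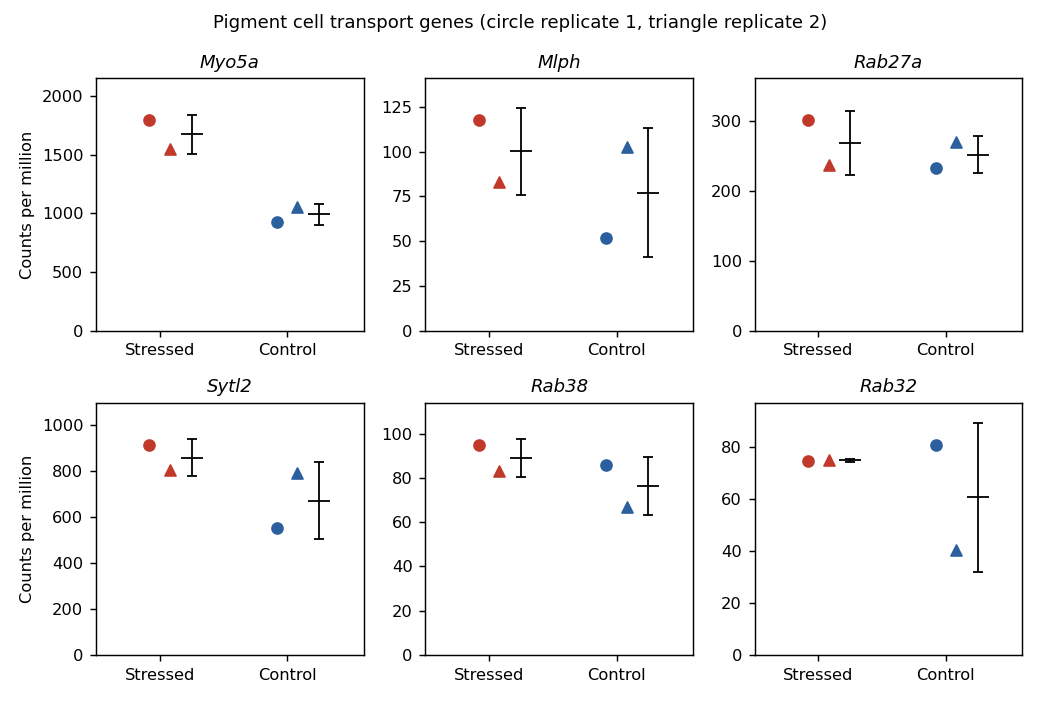
Level, in CPM, of the 6 members best known from pigment cells, by group (red stressed, blue control), with the mean ± SD of 2 libraries as black bars beside the points and with each panel starting at 0. In Myo5a both stressed points (1791 and 1552) sit above both control points (926 and 1056), in Sytl2 the gap is small, and in the other 4 genes the groups overlap.

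Promoter sequences are shown for Myo5a, the member that DESeq2 called, and for Mlph, its linker. They are also shown for Hps1 and Vps41, the members in which a TCATGTG motif, a form of the box bound by Mitf, was found. The sequences are from RefSeq on GRCm38.p6, cover 250 bases before to 50 after the gene start, and read 5′ to 3′ on the gene's own strand. The start is that of RefSeq, which can differ from the gene model of the count files. Capitals mark matches on either strand to TCATGTG, to the E-box CACGTG or to TGACTCA, the site of the AP-1 transcription factor, which is unrelated to the adaptor AP-1.
Myo5a, chr9:75070956-75071255, plus strand: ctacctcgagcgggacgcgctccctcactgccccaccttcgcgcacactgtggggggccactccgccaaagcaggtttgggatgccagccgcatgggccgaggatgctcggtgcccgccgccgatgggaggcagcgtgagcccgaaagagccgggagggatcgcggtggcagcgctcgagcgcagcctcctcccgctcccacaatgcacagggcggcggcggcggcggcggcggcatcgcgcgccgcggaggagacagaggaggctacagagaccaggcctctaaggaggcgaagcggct
Mlph, chr1:90914850-90915149, plus strand: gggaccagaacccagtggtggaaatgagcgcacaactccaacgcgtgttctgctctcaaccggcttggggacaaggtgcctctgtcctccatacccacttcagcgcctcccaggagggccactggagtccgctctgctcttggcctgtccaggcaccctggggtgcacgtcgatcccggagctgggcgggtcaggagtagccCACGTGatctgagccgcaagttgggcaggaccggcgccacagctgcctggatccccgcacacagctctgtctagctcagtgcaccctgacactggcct
Hps1, chr19:42779929-42780228, minus strand: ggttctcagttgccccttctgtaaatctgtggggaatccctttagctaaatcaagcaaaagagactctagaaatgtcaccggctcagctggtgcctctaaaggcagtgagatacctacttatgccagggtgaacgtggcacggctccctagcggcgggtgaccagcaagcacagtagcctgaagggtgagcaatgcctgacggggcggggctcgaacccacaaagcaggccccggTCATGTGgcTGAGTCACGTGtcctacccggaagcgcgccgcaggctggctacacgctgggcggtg
Vps41, chr13:18717042-18717341, plus strand: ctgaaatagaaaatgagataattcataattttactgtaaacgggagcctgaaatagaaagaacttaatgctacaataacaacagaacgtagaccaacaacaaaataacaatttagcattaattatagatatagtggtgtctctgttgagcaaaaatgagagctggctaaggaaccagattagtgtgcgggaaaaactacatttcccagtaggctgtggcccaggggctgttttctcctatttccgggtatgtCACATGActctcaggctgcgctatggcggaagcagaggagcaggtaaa
The Myo5a window held none of the 3 motifs. The gene model of the count files starts at 75071015, inside this window, so fewer than 250 bases before that start were searched. Mlph held CACGTG, Vps41 held the reverse complement of TCATGTG just after its start, and Hps1 held all 3 within a short stretch that spans its start, where the TGACTCA match (on the reverse strand) and CACGTG overlap. Of the 40 members 32 had a promoter among the 32851 searched, called all promoters below. The search left out part of the promoters of the genome, so a member outside the 32 may still have one. TCATGTG was found in 2 of the 32, or 6.25%, beside 2.68% of the 10038 tested genes with a searched promoter and 3.77% of all promoters. CACGTG was found in 9, or 28.1%, beside 11.8% of tested genes and 7.15% of all promoters. The 9 were Rab27a, Mlph, Bloc1s1, Bloc1s3, Hps3, Hps5, Hps1, Vps33a and Vps16, and 4 of them had positive fold changes, with values between -0.26 (Hps1) and 0.55 (Hps3). TGACTCA was found in Hps1 alone, or 3.12%, beside 4.64% of tested genes and 5.2% of all promoters. A match describes these letters in this window and is not a mapped site, and no match says nothing of the factor.

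Rab38 and Rab32 are close relatives that guide melanin-making enzymes to the melanosome. Rab38 (chromosome 7, 88430273-88491572, plus strand) was at 95.0 and 83.0 CPM in the stressed libraries, against 85.7 and 67.0 CPM in the controls, with overlapping groups and a log2 fold change of 0.22 (SE 0.20). Rab32 (chromosome 10, 10545011-10558233, minus strand) was at 74.3 and 75.0 CPM in the stressed libraries, against 80.7 and 40.3 CPM in the controls. The stressed pair was nearly equal, while the controls lay on either side of it. Its log2 fold change of 0.31 (SE 0.33, edgeR adjusted p = 0.764) was 0.89 without control replicate 1, a call by edgeR (adjusted p = 0.0241), and -0.11 without control replicate 2. Thus all 6 members known best from pigment cells (Myo5a, Mlph, Rab27a, Sytl2, Rab38 and Rab32) had positive fitted values over all 4 libraries, with a median of 0.33, but 4 of the 6 were positive without control replicate 1, and the median was 0.19 without stressed replicate 1. The other 34 members had a median of 0.08, with 20 higher, and of 0.14 without control replicate 2. Rab7, of late endosomes, was the steadiest member within groups, at 249 and 251 CPM in the stressed libraries, against 237 and 235 CPM in the controls, a log2 difference of 0.08 (SE 0.17). Rab9, which acts in return traffic from late endosomes to the trans-Golgi network, was at 38.5 and 26.4 CPM in the stressed libraries, against 55.3 and 30.3 CPM in the controls. Its log2 value of -0.40 (SE 0.36) turned to 0.10 without control replicate 1, which was the high library. Rabggta, the alpha subunit of the enzyme that attaches the lipid anchor of Rab proteins, was at 50.9 and 63.6 CPM in the stressed libraries, against 56.1 and 64.9 CPM in the controls, and its sign turned without stressed replicate 1 and without control replicate 2.

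Set against the pigment cell markers of the same library, the members took another order. The markers are a second yardstick, chosen after the values were seen, and no test was made. Per 1000 counts of the 9 pigment cell markers, Myo5a had 44.7 and 41.5 counts in the stressed libraries, against 40.4 and 48.3 in the controls, so that the groups overlapped. The 40 members together had 159 and 162 counts per 1000 marker counts in the stressed libraries, against 205 and 241 in the controls, lower in both stressed libraries. This marker sum is mostly Dct, Pmel and Tyrp1, melanosome genes whose CPM values were themselves higher in both stressed libraries than in either control. Per 1000 counts of Mitf, Sox10, Kit and Ednrb, the lineage regulators and receptors in the list, of which Kit had the most counts in every library, Myo5a had 353 and 276 counts in the stressed libraries, against 236 and 245 in the controls, with both stressed libraries above both controls. Kit, a receptor of melanocyte precursors, was itself at 2665 and 3303 CPM in the stressed libraries, against 1811 and 1877 CPM in the controls (DESeq2 adjusted p = 0.017). On that scale the 40 members had 1258 and 1077 counts in the stressed libraries, against 1198 and 1225 in the controls, with overlapping groups. The remaining 39 without Myo5a had 905 and 801 in the stressed libraries, against 962 and 980 in the controls. Whether Myo5a lies apart thus depended on the yardstick, and the part of the lower keratinocyte marker share of the stressed libraries in these values was not tested.

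**Figure D3:**
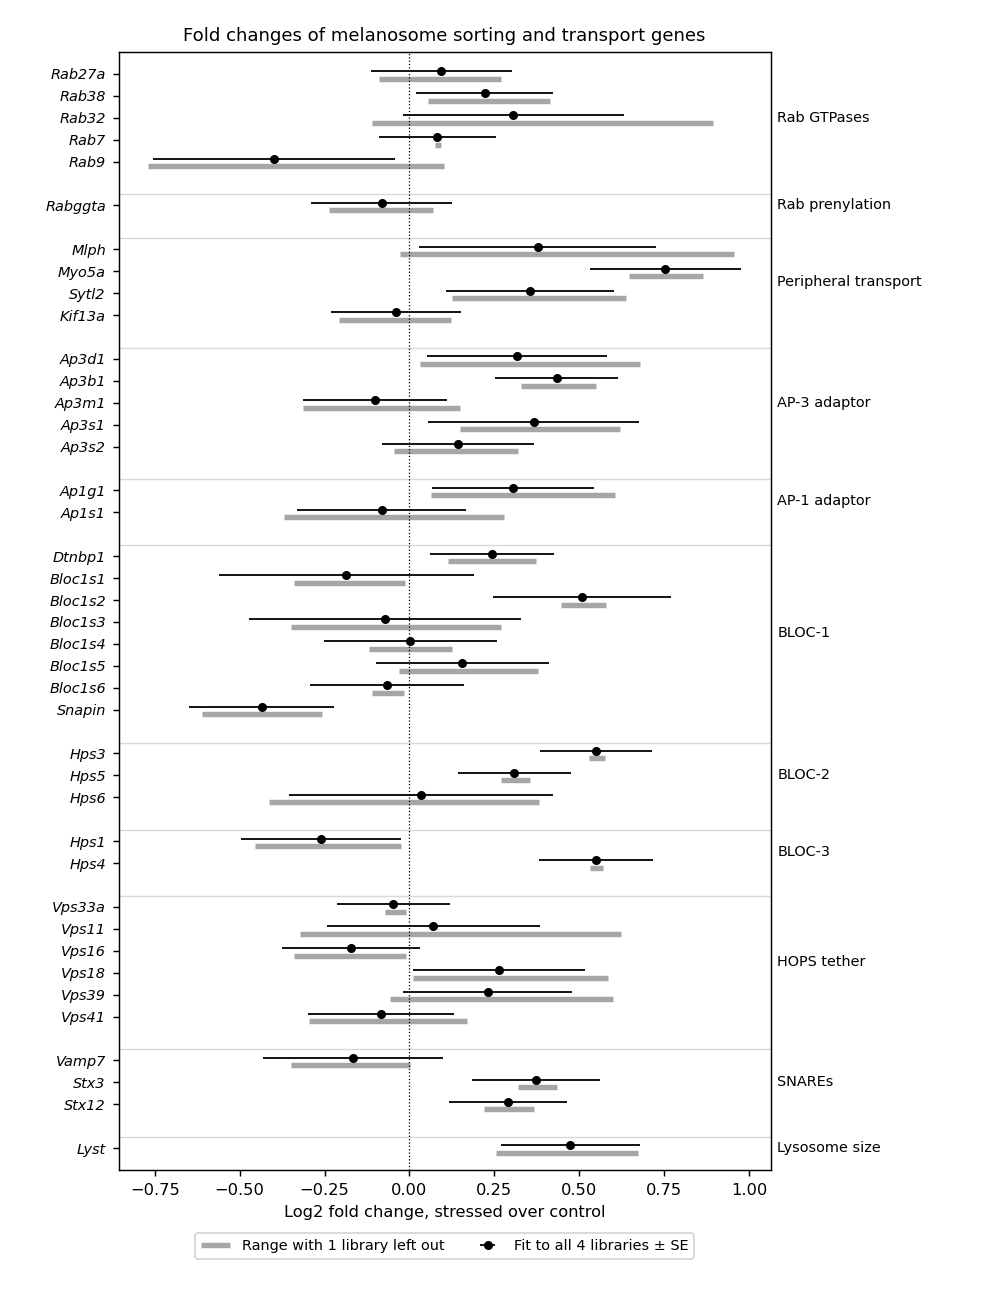
Log2 fold change, stressed over control, of each member from edgeR's fit to all 4 libraries (black point, bar ± SE), with the range of values when 1 library is left out (grey bar), ordered by role. Myo5a lies farthest to the right at 0.75, with a grey bar between 0.65 and 0.87, and the grey bars of 17 of the 40 members cross 0.

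AP-3, the coat that sorts tyrosinase out of early endosomes, had positive log2 fold changes in 4 of 5 subunits (median 0.32), none called by edgeR or DESeq2. That median was 0.18 without stressed replicate 2 and 0.15 without either control. Ap3b1, the large beta subunit whose loss gives the pearl coat, was at 227 and 224 CPM in the stressed libraries, against 179 and 155 CPM in the controls. Both stressed libraries lay above both controls, and the log2 fold change was 0.43 (SE 0.18, edgeR adjusted p = 0.394). Ap3d1, the delta subunit whose loss gives mocha, was at 249 and 303 CPM in the stressed libraries, against 172 and 271 CPM in the controls, where control replicate 1 was the low library. Its log2 value of 0.32 was 0.03 without that library. The small subunit Ap3s1 had a value of 0.37 (SE 0.31), and its paralogue Ap3s2 one of 0.14 (SE 0.22). The medium subunit Ap3m1 had a value of -0.10, and 29.8% of its exon length overlaps Vcl on the opposite strand. Its count rests on the part that counting without strand could assign to it. AP-1, the coat of recycling endosomes and the trans-Golgi network, had Ap1g1 at 0.31 (SE 0.24) and Ap1s1 at -0.08 (SE 0.25), both with overlapping groups. Of the exon length of Ap1g1, 18.7% overlaps Gm17344 on the opposite strand, so that its count is limited in the same way.

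Hps3 and Hps4, subunits of BLOC-2 and BLOC-3, stood next to Myo5a as the members with the largest fold changes, and their libraries matched closely within each group. Hps3, a BLOC-2 subunit whose loss gives the cocoa coat (chromosome 3, 19995945-20035315, minus strand), was at 115 and 113 CPM in the stressed libraries, against 76.3 and 79.1 CPM in the controls. Hps4, a BLOC-3 subunit whose loss gives light ear (chromosome 5, 112343083-112378414, plus strand), was at 169 and 169 CPM in the stressed libraries, against 117 and 114 CPM in the controls. In both genes the groups were well apart and the libraries of a group lay close together, with log2 fold changes of 0.55 (SE 0.17 each). Neither was called by edgeR (adjusted p = 0.262 for Hps3 and 0.265 for Hps4) or by DESeq2 (adjusted p = 0.160 for Hps3 and 0.116 for Hps4). Leaving out any 1 library kept Hps3 between 0.53 and 0.58 and Hps4 between 0.53 and 0.57. Hps5, another BLOC-2 subunit, was at 105 and 102 CPM in the stressed libraries, against 85.9 and 81.3 CPM in the controls, with a log2 fold change of 0.31 (SE 0.17). Hps6, the remaining BLOC-2 subunit, differed more within groups than between them, at 10.6 and 18.6 CPM in the stressed libraries, against 11.7 and 16.8 CPM in the controls. Hps1, the partner of Hps4 in BLOC-3, had overlapping groups. It was at 40.2 and 47.6 CPM in the stressed libraries, against 44.7 and 60.3 CPM in the controls, with a log2 value of -0.26 (SE 0.24). The difference between the fold changes of Hps1 and Hps4 was not tested.

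BLOC-1, which shapes the tubular carriers that leave endosomes, was split. Of its 8 subunits 4 were higher and 4 lower (median log2 value -0.03), and edgeR and DESeq2 called none. Snapin, a subunit that also binds SNARE proteins, was the lowest of all 40 members by fold change, at 116 and 91.7 CPM in the stressed libraries, against 124 and 156 CPM in the controls. Both stressed libraries lay below both controls, and the log2 value was -0.44 (SE 0.21, edgeR adjusted p = 0.460), which was -0.27 without stressed replicate 2 and -0.26 without control replicate 2, and 15.5% of its exon length overlaps Ilf2 on the opposite strand. Bloc1s2 was at 23.0 and 21.2 CPM in the stressed libraries, against 15.6 and 15.4 CPM in the controls, with a log2 fold change of 0.51 (SE 0.26). Its groups did not overlap, on counts of between 146 and 245 in a library. Dtnbp1, which encodes dysbindin and is mutated in sandy mice, was at 109 and 92.1 CPM in the stressed libraries, against 88.5 and 81.7 CPM in the controls. The pallid gene Bloc1s6 (-0.07), the muted gene Bloc1s5 (0.16), the cappuccino gene Bloc1s4 (0.0028) and the reduced pigmentation gene Bloc1s3 (-0.07) all had log2 values smaller than their SEs. Bloc1s1 had between 81 and 91 counts in a library, and 55.9% of its exon length is shared with Rdh5 on the same strand. Its value of -0.19 (SE 0.38) rests on the part that the authors' counting could assign to it.

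The HOPS complex tethers late endosomes to lysosomes. Its 6 subunits divided into 3 higher and 3 lower (median log2 value 0.01), and in all 6 the groups overlapped, beside 55.3% of all genes tested. Vps33a, the fusion subunit mutated in buff mice, was at 99.5 and 96.2 CPM in the stressed libraries, against 99.0 and 103 CPM in the controls, a log2 difference of -0.05 (SE 0.17). Vps11 was the most variable of the 6, at 168 and 173 CPM in the stressed libraries, against 111 and 215 CPM in the controls. Its stressed libraries lay between the 2 controls, so leaving out control replicate 1 gave -0.32 and leaving out control replicate 2 gave 0.62. The other HOPS subunits had log2 values of -0.17 (Vps16), 0.26 (Vps18), 0.23 (Vps39) and -0.08 (Vps41). Among the SNAREs, the fusion proteins of the route, Stx3 and Stx12 had both stressed libraries above both controls, with log2 fold changes of 0.37 (SE 0.19) and 0.29 (SE 0.17). Stx3 was at 57.5 and 59.3 CPM in the stressed libraries, against 46.8 and 43.4 CPM in the controls. Stx12 was at 167 and 162 CPM in the stressed libraries, against 141 and 128 CPM in the controls. Vamp7, their vesicle-side partner, had overlapping groups and a value of -0.17 (SE 0.26). None of the SNAREs was called by edgeR or DESeq2. Lyst, which limits the size of lysosomes and related organelles and is mutated in beige mice, was at 124 and 166 CPM in the stressed libraries, against 105 and 104 CPM in the controls. Both stressed libraries were above both controls and stressed replicate 2 was the higher, with a log2 fold change of 0.47 (SE 0.21, edgeR adjusted p = 0.412), which was 0.26 without stressed replicate 2.

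Of the 40 members, 19 are known mouse coat colour loci. Among these 14 were higher and 5 lower (median log2 value 0.22), against 12 higher and 9 lower with a median of 0.08 among the other 21. The 3 members with an unadjusted edgeR p below 0.05, Myo5a (dilute), Hps3 (cocoa) and Hps4 (light ear), are all coat colour loci. That is 15.8% of the loci and 0% of the other members, beside 5.17% of all genes higher. The edgeR adjusted p was 0.254 for Myo5a, 0.262 for Hps3 and 0.265 for Hps4. Without control replicate 1 the coat colour loci divided into 10 higher of 19, with a median of 0.03, and without stressed replicate 1 the median was 0.12. The difference between the loci and the other members was not tested.

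Levels per length, in transcripts-per-million units (TPM) computed here from the counts and the exon lengths in the files, placed most members above the typical gene. Of the 40, 37 exceeded 23.7 TPM, the median over 13934 genes detected in all 4 libraries. TPM divides by the whole exon length, so it can read low where exons are shared with another gene. Bloc1s1 (20.5 TPM, 55.9% of its exon length shared with Rdh5) is such a case below that median. Rab7 had the highest level at 303 TPM (mean of 4 libraries), followed by Myo5a at 294 TPM, Dtnbp1 at 227 TPM and Rab27a at 218 TPM. Myo5a was at 401 and 351 TPM in the stressed libraries, against 196 and 229 TPM in the controls, and Rab7 at 316 and 322 TPM in the stressed libraries, against 285 and 289 TPM in the controls. Myo5a was thus above Rab7 in both stressed libraries and below it in both controls. Bloc1s3 had the lowest level of the 40 at 9.67 TPM. Within complexes the subunits were far from equal. Dtnbp1 had 23.4 times the TPM of Bloc1s3 in BLOC-1, Ap3d1 had 6.96 times that of Ap3s2 in AP-3, Vps41 had 4.98 times that of Vps39 in HOPS, and Hps4 had 4.40 times that of Hps1 in BLOC-3. Between paralogues, Rab38 exceeded Rab32 in every library, with a TPM ratio of 1.71 and 1.48 in the stressed libraries, against 1.42 and 2.22 in the controls. Rab27a exceeded its paralogue Rab27b by 37.4 and 32.9 times in the stressed libraries, against 10.9 and 42.1 times in the controls. The low ratio belonged to control replicate 1, the library with the largest keratinocyte marker share, whose part in the ratio was not tested.

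**Figure D4:**
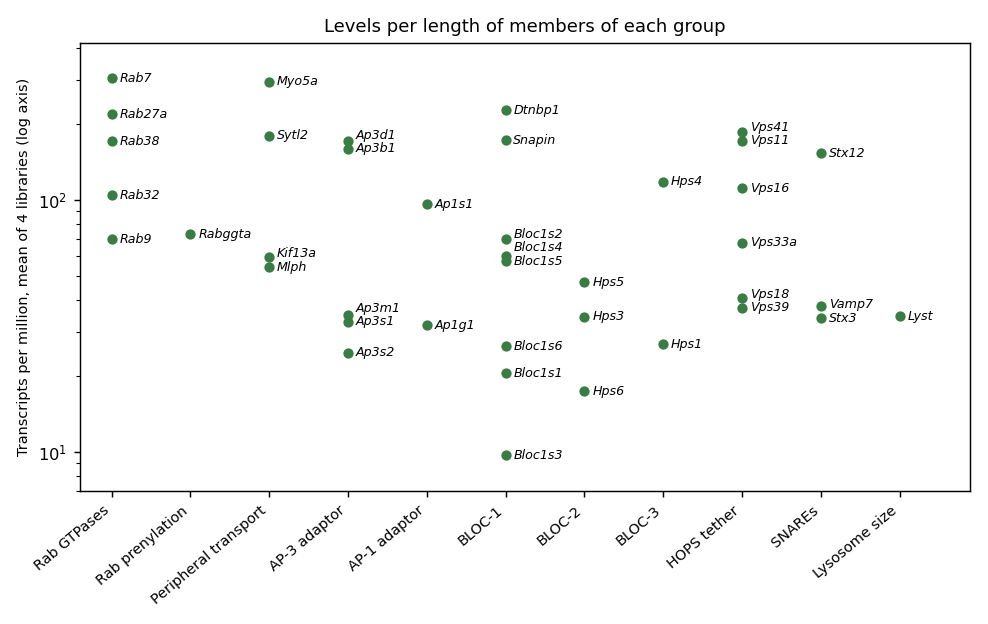
Mean level of each member over the 4 libraries, in TPM on a log axis, with 1 column of points for each role. The spread within a complex reaches 23.4-fold in BLOC-1, between Dtnbp1 at 227 and Bloc1s3 at 9.67, and Rab7 at 303 and Myo5a at 294 stand highest.

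Other genes of endosomal and melanosomal traffic, from 9 lists outside the members, had overlapping groups in 59 of 104 tested genes, or 56.7%, beside 55.3% of all genes. Of the 104, 60 were higher and 44 lower (median log2 value 0.04). DESeq2 called 1 higher and 2 lower, together 2.88%, beside 4.4% of all genes. EdgeR called none, and its unadjusted p was below 0.05 in 4 higher genes (3.85%, beside 5.17%) and 2 lower genes (1.92%, beside 7.6%). These shares lie below those of all genes. The gene called higher was Myo7a, an actin motor known from melanosomes of the retinal pigment epithelium. It was at 388 and 452 CPM in the stressed libraries, against 192 and 244 CPM in the controls, with both stressed libraries above both controls and a log2 fold change of 0.95 (SE 0.21, edgeR adjusted p = 0.175, DESeq2 adjusted p = 0.0017). The DESeq2 call was lost without stressed replicate 1 and without stressed replicate 2, and edgeR called the gene with no filter on low counts.

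The 2 genes called lower encode effectors of Rab27. Sytl1, a relative of Sytl2, was at 27.6 and 37.6 CPM in the stressed libraries, against 131 and 80.9 CPM in the controls, with a log2 fold change of -1.70 (SE 0.29, edgeR adjusted p = 0.127, DESeq2 adjusted p = 5.3e-05). Exph5, an effector known from keratinocytes, was at 32.9 and 37.8 CPM in the stressed libraries, against 89.1 and 64.6 CPM in the controls, with a log2 fold change of -1.12 (SE 0.23, edgeR adjusted p = 0.151, DESeq2 adjusted p = 0.00681). In both genes both stressed libraries lay below both controls and control replicate 1 was the highest, as in the summed keratinocyte markers (1.10% and 0.920% of counts in the stressed libraries, against 2.87% and 1.71% in the controls). The part of keratinocyte RNA in these values was not tested. The DESeq2 call of Exph5 was lost without either stressed library (adjusted p = 0.465 and 0.473) and without control replicate 1 (adjusted p = 0.193), and that of Sytl1 without stressed replicate 1 (adjusted p = 0.0763). Without a filter on low counts edgeR called both, beside 4.02% of all genes. The TPM ratio of Sytl2 to Sytl1 was 5.99 and 3.86 in the stressed libraries, against 0.762 and 1.77 in control replicates 1 and 2. Sytl2 was thus below Sytl1 in control replicate 1.

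Among the lists, the 8 phosphoinositide enzymes of endosomes all had positive values (median log2 0.24), and 7 of 8 were higher without control replicate 1. Pikfyve, the kinase whose lipid product controls endosome and lysosome size, was at 78.8 and 71.6 CPM in the stressed libraries, against 51.1 and 50.1 CPM in the controls, a log2 fold change of 0.57 (SE 0.18, edgeR adjusted p = 0.275, DESeq2 adjusted p = 0.215). The 12 microtubule and actin motors included 10 higher, with a median of 0.25, which was 0.15 without control replicate 1. Of 16 other tested Rab genes 3 were higher and 13 lower, with a median of -0.16, but 9 of 16 were higher without control replicate 1, with a median of 0.03. The 13 other endosomal SNAREs (median -0.10), the 11 ESCRT genes (0.05), the 9 BORC and Arl8 genes (0.11), the 9 CORVET and retromer genes (0.08), the 20 Rab regulators and effectors (0.05) and the 6 other AP-1 and AP-3 subunits (0.03) had medians close to 0.

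**Figure D5:**
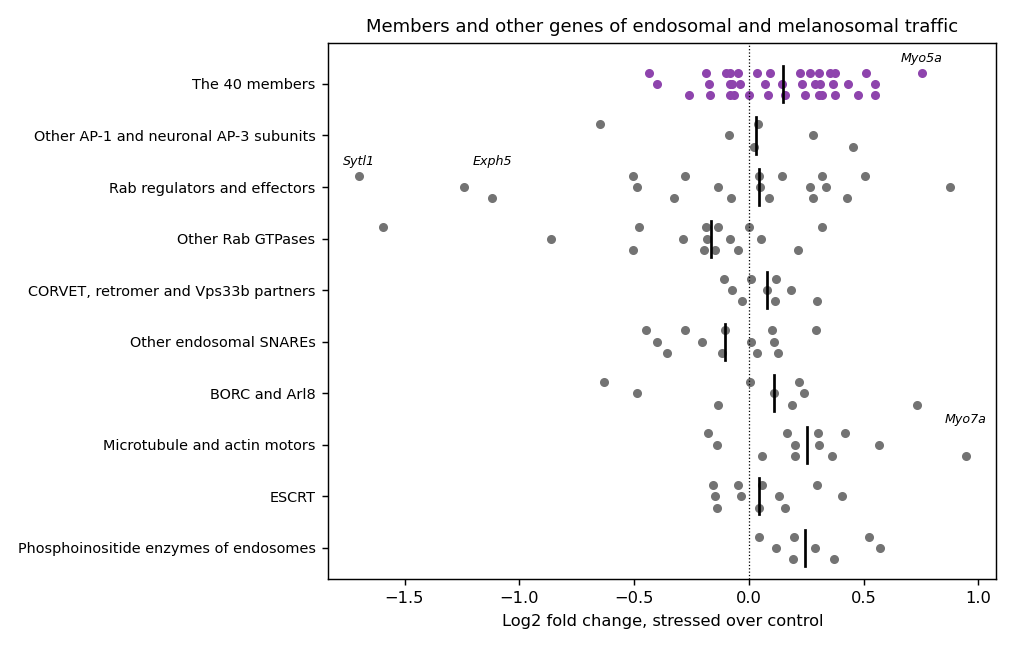
Log2 fold change, stressed over control, of the tested genes in the member set (purple) and in 9 other lists of traffic genes (grey), with each list's median as a black bar and the names of the 4 genes called by DESeq2. The medians lie between -0.16 and 0.25, Myo5a (0.75) and Myo7a (0.95) are at the right and Sytl1 (-1.70) at the left.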

How the data were processed

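Whole-number read counts per gene were deposited by the authors, 1 file for each of the 4 libraries. Per the file headers they were made with featureCounts 1.6.1, summing reads over exons by gene name on mm10 at a minimum mapping quality of 30, with no strand option and no option to count reads that overlap more than 1 gene. STAR 2.5.3, Trim Galore 0.4.1 and DESeq2 1.22.2 are named in the submitters' processing notes. Libraries used the Smart-Seq V4 kit, per the labels' protocols. Per the file headers, the alignments behind stressed replicates 1 and 2 carry the numbers 2 and 3, and those behind control replicates 1 and 2 the numbers 1 and 2. Any other stressed library is not analysed here. The Length column of the deposited files, the exon length in bases and no score or count, was used for TPM.

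The analysis ran in R 4.3.3. Low genes were removed with filterByExpr (minimum count 10), and counts were scaled by TMM and compared with edgeR 4.0.16's two-sided quasi-likelihood F-test, with group as the only term and a call at an adjusted p below 0.05. SE is the absolute log2 fold change over the square root of F. CPM uses TMM-scaled totals, and shares of counts use all counts. DESeq2 1.42.0 and limma-voom (limma 3.58.1), other scalings, no low-count filter, the replicate number as a block and each library left out were alternatives. With 1 library left out, its group's remaining library was taken to vary as much as those of the other group. The tests were tested on simulated data.

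The limit set by 0 counts (3 counts) lies between 0.253 and 0.323 CPM, which covers counting error only. Replicates of a group differed by more than sampling noise (chi-square per degree of freedom 17.99 stressed, 53.99 control) and were each counted. The members, lists and tests were chosen with earlier results of these data known. Named were all 40 members, and of the other traffic genes those called by either tool and the 2 with the largest change in each direction at 10 CPM or more. Rab27b, the paralogue of Rab27a, and the pigment cell markers used as a yardstick are named outside this rule. Planned protein sequences are not used here. Vps28, of the ESCRT list, was not analysed here. Results for 1 further list of cell type markers are not reported here.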

Additional observations from a re-analysis of the deposited data

How the results depend on the processing

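The sign of 23 of the 40 members' fold changes held with each library left out in turn. The other 17 turned, with log2 values between -0.090 and 0.27 for Rab27a, -0.11 and 0.89 for Rab32, -0.77 and 0.10 for Rab9, -0.24 and 0.071 for Rabggta, -0.026 and 0.96 for Mlph, -0.21 and 0.12 for Kif13a, -0.31 and 0.15 for Ap3m1, -0.045 and 0.32 for Ap3s2, -0.37 and 0.28 for Ap1s1, -0.35 and 0.27 for Bloc1s3, -0.12 and 0.12 for Bloc1s4, -0.030 and 0.38 for Bloc1s5, -0.41 and 0.38 for Hps6, -0.32 and 0.62 for Vps11, -0.056 and 0.60 for Vps39, -0.30 and 0.17 for Vps41, and -0.35 and 0.0026 for Vamp7. Under the other settings 4 of 240 member values turned, Bloc1s4 at -0.0087 with upper-quartile scaling, -0.0043 with limma-voom and -0.0013 with the replicate block, and Hps6 at -0.016 with limma-voom. The cause was not tested.

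Over all genes edgeR called 0 in the 4 libraries, 760 with no low-count filter, and between 0 and 995 with 1 library left out (866 without control replicate 1, 995 without control replicate 2). DESeq2 called 587, and between 45 and 826 with 1 library left out (150 without stressed replicate 1, 45 without stressed replicate 2). Over all 4 libraries edgeR called 0 of the 40 members, beside 0% of all genes, and DESeq2 1, or 2.5%, beside 4.4%. With the replicate block edgeR called 0 genes and DESeq2 486, and Myo5a kept its DESeq2 call (adjusted p = 0.0248). The libraries share only a number in the labels (the pairs' differences correlated at 0.172 across genes), and by the file headers stressed replicate 1 shares its number with control replicate 2, so the block has no support there. The number of members higher lay within 1.5 times of 26 in all these settings, a wide band that an even split would also meet. It was 25 with upper-quartile scaling and 24 with limma-voom. Their median of 0.15 lay between 0.098 (without control replicate 1) and 0.17 with 1 library left out. Low counts, down to 81 in Bloc1s1, limit what could be detected in the small BLOC-1 subunits.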
